A study of Mus musculus with 4 samples.

Results

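The endothelin genes examined here were the 3 ligand genes Edn1, Edn2 and Edn3, the 2 receptor genes Ednra and Ednrb, and Ece1, which encodes the enzyme that releases the active peptide. A probe set, the group of short probes that yields 1 value for a transcript, was taken as a member when its deposited gene symbol was exactly 1 of these 6 names. The rule found 16 of 45101 probe sets on the array, 1 each for Edn1 and Edn2, 3 each for Ece1 and Ednrb, and 4 each for Edn3 and Ednra. All 6 genes were measured.

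RNA came from the jejunal muscularis, the muscle coat left after mucosa and submucosa were removed, of 2 wild type (WT) mice and 2 smooth muscle-specific Dicer knockout (smDicer KO) mice, all aged 3 weeks in the labels, with 1 Affymetrix Mouse Genome array per mouse. The smDicer KO mice had the genotype Dicer lox/Δ; smMHC Cre-GFP/+, in which the smooth muscle myosin heavy chain (Myh11) promoter drives Cre and eGFP. Smooth muscle cells thus lose Dicer, the enzyme that cuts microRNA precursors, while the paper expects the other cells to go on expressing it. Those other cells need not have 2 intact copies, since the paper lists Dicer lox/Δ mice without Cre as heterozygous null. The methods call smMHC Cre-GFP/+ mice wild type, and name C57BL6 mice separately as the source of muscle for organ culture. The extended methods describe WT mice as siblings of the transgenic mice. The array section speaks only of WT controls, and their genotype is not stated there. Per the methods the knockouts were female, and the sex of the WT mice is not given. Nothing in the labels ties the replicate numbers to litters.

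Endothelins are short peptides cut from larger precursors. Furin-type proteases free an inactive intermediate, big endothelin, and endothelin-converting enzyme 1 (Ece1) trims it to the active form. The peptides act on a pair of G protein-coupled receptors: the type A receptor (Ednra) couples mainly through Gq and G12/13 and contracts smooth muscle, whereas the type B receptor (Ednrb) is found on endothelium, glia and some smooth muscle. In the gut, Edn3 from the mesenchyme acting on Ednrb of migrating neural crest cells is needed for complete colonization by the enteric nervous system, and its loss leaves the distal bowel without ganglia.

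The 4 arrays had medians from 5.17 to 5.22 on the log2 scale, and 60.2% of probe sets had a mean under 6, a range near background. In limma's test of smDicer KO against WT, 0 of 45101 probe sets (0.0%) passed an adjusted p of 0.05 after Benjamini-Hochberg adjustment, with a lowest adjusted p of 0.134, and 7126 probe sets (15.8%) passed an unadjusted p of 0.05, of which 2889 were higher and 4237 were lower in smDicer KO. The targeted gene, Dicer1, was lower by 0.51 (SE 0.16, adjusted p = 0.271 by limma) and 0.49 (SE 0.17, adjusted p = 0.302 by limma) on its 2 probe sets, which need not lie in the deleted part. The 9 smooth muscle markers were all lower, with a median log2 difference of -0.62, and 3 of the 9 (33.3%) passed the unadjusted p. With each gene taken by its probe set of highest mean, 17.7% of all genes passed, and 25.7% of those with a mean of at least 6. The smDicer KO arrays stood apart from each other: the median marker of mucosal epithelium, which is stripped off with the mucosa, was 2.80 above the WT mean in smDicer KO 1 and 5.97 above it in smDicer KO 2. With a median over 11 measured markers of 4.52 and 11 of 11 higher, no other marker list shifted as far. In bulk tissue, fewer cells of a type and less RNA per cell cannot be told apart.

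Among the 16 endothelin probe sets, 1 passed an unadjusted p of 0.05, or 6.25%, against 15.8% of all probe sets, and 0 passed the adjusted p, with adjusted values from 0.294 to 1. The 1 was the Ednra probe set 1433525_at, which was lower in smDicer KO. The genotypes did not overlap on 7 of 16 probe sets (43.8%), 3 of them higher and 4 lower, which was close to the 49.1% found over all 45101 probe sets. In total 7 were higher and 9 lower, and the median log2 difference of -0.09 compared with -0.03 over all probe sets. Of the 16, 10 had a mean log2 value of at least 6. With each gene taken by its probe set of highest mean, 1 of 6 genes passed the unadjusted p, beside 17.7% of 20461 genes and 25.7% of the 10748 genes with a mean of at least 6.

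**Figure D1:**
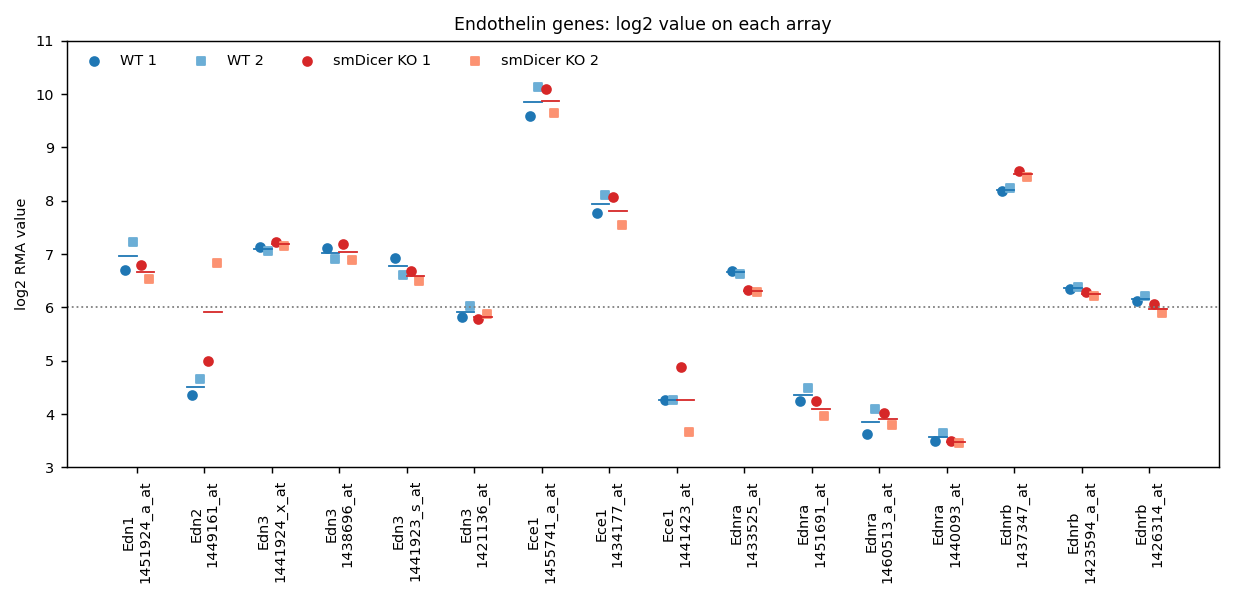
Log2 RMA value (vertical axis) of each of the 16 endothelin probe sets (horizontal axis) on the 4 arrays, with WT in blue and smDicer KO in red, short lines for group means and a dotted line at 6, under which values lie near background. Edn2 in smDicer KO 2, at 6.83, is set apart from the other 3 arrays, which lie between 4.36 and 4.998.

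**Figure D2:**
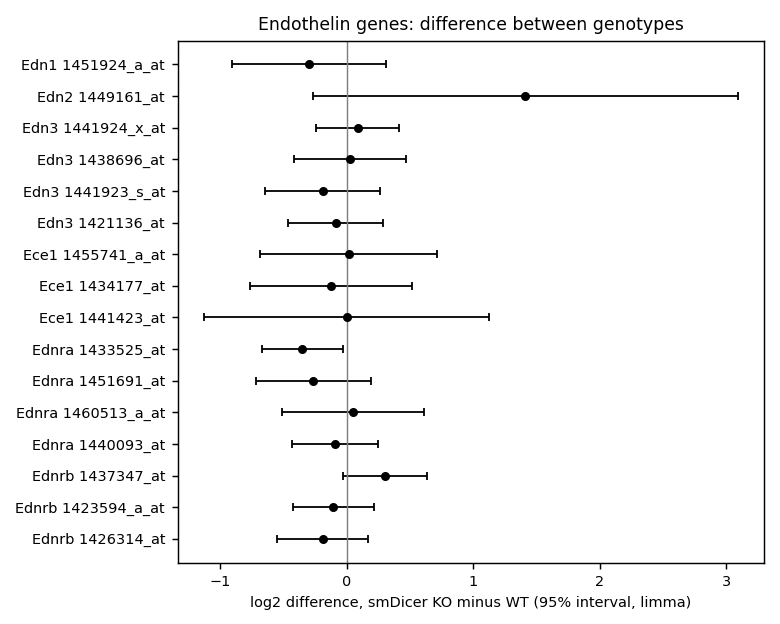
Log2 difference, smDicer KO minus WT (horizontal axis), for each endothelin probe set (vertical axis), with points for the estimate and bars for limma's 95% interval from 2 arrays per group. Only the interval of Ednra 1433525_at, from -0.67 to -0.03, leaves out 0, and that of Edn2, from -0.27 to 3.09, is the widest.

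Edn1 encodes endothelin-1, the main endothelial vasoconstrictor peptide. Its probe set 1451924_a_at, aligned to chr13:42397004-42402889 on the plus strand in the deposited annotation (whose build is not given in the sources used here), read 6.69 and 7.22 in WT and 6.79 and 6.53 in smDicer KO. The groups overlapped, since smDicer KO 1 lay above WT 1. The log2 difference was -0.30 (SE 0.23, 95% interval -0.90 to 0.31, adjusted p = 0.575 by limma), a fold of 0.815, and it depended on the second WT array: it was -0.03 without WT 2 and -0.56 without WT 1. Of the markers of endothelium, the tissue that makes most endothelin-1, 4 of 9 were higher and 5 of 9 lower, with a median log2 difference of -0.04 that became 0.06 after cyclic loess scaling and summed linear levels of 1259 and 1278 in WT and 1455 and 1264 in smDicer KO. Of these, 2 of 9 (22.2%) passed the unadjusted p, beside 17.7% of all genes and 25.7% of those with a mean of at least 6. They were Kdr (0.53 higher, SE 0.13, adjusted p = 0.240 by limma), the receptor for vascular endothelial growth factor, and Vwf (0.72 higher, SE 0.24, adjusted p = 0.281 by limma), von Willebrand factor. Of the 5 lower markers Cdh5 differed most, at -0.41 (SE 0.20, adjusted p = 0.400 by limma). The part of endothelial RNA in the Edn1 values was not tested.

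Edn2 encodes endothelin-2, first known in the mouse as vasoactive intestinal contractor, a peptide made in the intestinal epithelium. Its probe set 1449161_at, aligned to chr4:119833811-119839970 on the plus strand in the same annotation, read 4.36 and 4.65 in WT, 4.998 in smDicer KO 1 and 6.83 in smDicer KO 2. The groups did not overlap, but 3 of the 4 arrays lay in the range near background and 1 array carried most of the difference. The WT mean was 4.51 ± 0.21 and the smDicer KO mean 5.92 ± 1.30 (SD, n = 2 each). The log2 difference of 1.41 (SE 0.63, 95% interval -0.27 to 3.09, adjusted p = 0.369 by limma), a fold of 2.66, was the largest of the 16 in size. Without smDicer KO 2 it was 0.49 and without smDicer KO 1 it was 2.33 (adjusted p = 0.0607 by limma, a value in which the lone smDicer KO array is assumed to vary like the 2 WT arrays). The same array had the highest epithelial markers. Fabp2, the intestinal fatty acid binding protein of absorptive cells, read 4.32 and 9.06 in WT, 12.3 in smDicer KO 1 and 13.5 in smDicer KO 2. The summed linear level of the 11 epithelial markers was 3712 and 3517 in WT, 14206 in smDicer KO 1 and 53075 in smDicer KO 2. The near-equal WT sums hide differences between the WT arrays. Krt8, Krt18, Krt19 and Cdx2 were lower in WT 2, Krt8 at 10.6 and 9.65. The other markers were higher in WT 2, Fabp1 at 3.34 and 8.28 and Alpi at 5.29 and 7.37. None of the 11 had a mean under 6 over the 4 arrays, to which the high smDicer KO values contribute. In WT alone the means of Vil1 (5.18), Cdh1 (4.94), Krt20 (5.98), Fabp1 (5.81) and Cdx2 (5.35) were under 6. The part of mucosal RNA in the Edn2 values was not tested.

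**Figure D3:**
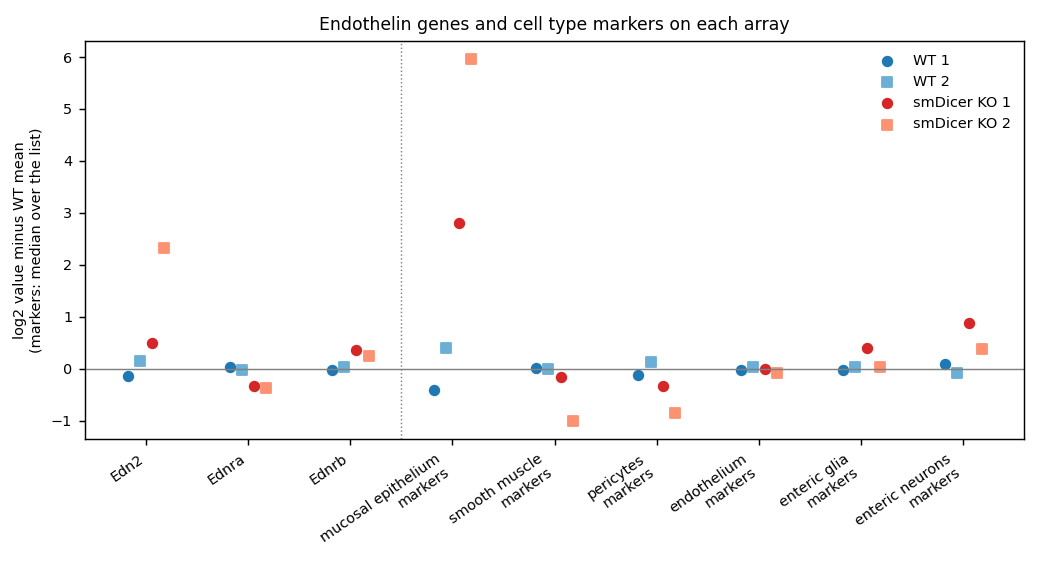
Log2 value minus the WT mean (vertical axis) on the 4 arrays for Edn2, Ednra and Ednrb, each by its probe set of highest mean, and the median of the same quantity over 6 lists of cell type markers (horizontal axis). Edn2 and the epithelial markers have their highest point in smDicer KO 2, at 5.97 for the markers, whereas Ednra lies below and Ednrb above WT on both smDicer KO arrays.

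Edn3, the ligand of the neural crest, had 4 probe sets, of which 1441924_x_at and 1441923_s_at are aligned to the same stretch, so these 2 are not separate measurements of position. Probe set 1441924_x_at, whose suffix marks probes that may also match other transcripts, read 7.14 and 7.06 in WT and 7.23 and 7.15 in smDicer KO. The groups did not overlap, yet the difference of 0.09 (SE 0.12, 95% interval -0.24 to 0.41, adjusted p = 0.782 by limma) was small beside its error. Probe set 1438696_at read 7.12 and 6.91 in WT and 7.18 and 6.89 in smDicer KO. Probe set 1441923_s_at read 6.93 and 6.61 in WT and 6.68 and 6.49 in smDicer KO, and 1421136_at read 5.81 and 6.02 in WT and 5.78 and 5.88 in smDicer KO. On these 3 the groups overlapped. Over the 4 probe sets the log2 difference ran from -0.19 to 0.09 and no direction was shared. Even the narrowest of the 4 intervals, from -0.24 to 0.41, leaves room for a difference of up to 0.41 on the log2 scale. With 2 arrays per group a change of that size in Edn3 is therefore not excluded.

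Ece1, the converting enzyme, was read by 1455741_a_at at 9.58 and 10.1 in WT and 10.1 and 9.64 in smDicer KO. The groups overlapped almost fully, with a log2 difference of 0.02 (SE 0.26, 95% interval -0.69 to 0.72, adjusted p = 0.988 by limma) that became -0.03 with each array centred on its median. Probe set 1434177_at read 7.76 and 8.11 in WT and 8.08 and 7.55 in smDicer KO, again overlapping. On both probe sets WT 2 and smDicer KO 1 were the high arrays, so the spread lay between mice of a genotype rather than between genotypes. The third, 1441423_at, read 4.27 and 4.26 in WT and 4.88 and 3.66 in smDicer KO, is matched to no RefSeq transcript in the deposited annotation, and lies near background.

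The receptors gave the 2 smallest p-values of the 16 probe sets, and their main probe sets differed in opposite directions. Ednra 1433525_at, aligned to chr8:80186928-80187926 on the minus strand in the same annotation at the 3′ end of the gene, read 6.69 and 6.62 in WT and 6.33 and 6.29 in smDicer KO. Both smDicer KO arrays lay below both WT arrays, with means of 6.66 ± 0.05 in WT and 6.31 ± 0.03 in smDicer KO (SD, n = 2 each). The log2 difference was -0.35 (SE 0.12, 95% interval -0.67 to -0.03, unadjusted p = 0.0380 and adjusted p = 0.294 by limma), a fold of 0.784. The direction held on leaving out any array, and the unadjusted p then ran from 0.0549 to 0.154. Smooth muscle markers, of the cells on which this receptor contracts, were lower on both smDicer KO arrays, at a median of -0.17 and -1.01 from the WT mean and with a summed linear level of 106660 and 106440 in WT and 97916 and 70940 in smDicer KO, and 4 of 5 pericyte markers were lower as well. Ednra was lower by nearly the same amount on both arrays. The part of smooth muscle and pericyte RNA in this difference was not tested.

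The other 3 Ednra probe sets lay near background. Probe set 1451691_at read 4.24 and 4.48 in WT and 4.24 and 3.96 in smDicer KO, 1460513_a_at read 3.62 and 4.09 in WT and 4.02 and 3.79 in smDicer KO, and 1440093_at, matched to no RefSeq transcript, read 3.49 and 3.64 in WT and 3.49 and 3.46 in smDicer KO. Their log2 differences were -0.26, 0.05 and -0.09, with unadjusted p-values from 0.191 to 0.820 by limma. The lower value of Ednra thus rested on 1 probe set.

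Ednrb 1437347_at, aligned to chr14:104213833-104214906 on the minus strand in the same annotation at the 3′ end of the gene, read 8.18 and 8.23 in WT and 8.56 and 8.45 in smDicer KO. Both smDicer KO arrays lay above both WT arrays, with means of 8.20 ± 0.04 in WT and 8.504 ± 0.08 in smDicer KO (SD, n = 2 each). The log2 difference was 0.30 (SE 0.12, 95% interval -0.03 to 0.63, unadjusted p = 0.0663 and adjusted p = 0.343 by limma), a fold of 1.23. With 1 array left out it ran from 0.24 (without smDicer KO 1) to 0.36 (without smDicer KO 2), and the unadjusted p from 0.0586 to 0.216. Enteric glia, which carry this receptor, had 6 of 6 measured markers higher at a median of 0.21, with summed linear levels of 1358 and 1413 in WT and 1892 and 2077 in smDicer KO, and 7 of 7 neuron markers were higher at a median of 0.64. The median glial marker was 0.41 above the WT mean on smDicer KO 1 and 0.03 above it on smDicer KO 2. Erbb3, a neuregulin receptor gene that epithelia also express, read 7.77 and 8.02 in WT, 8.64 in smDicer KO 1 and 9.84 in smDicer KO 2, and without it, a choice made after seeing the data, the summed levels were 1140 and 1153 in WT and 1494 and 1159 in smDicer KO. Of the other glial markers Gfap was higher by 0.97 (SE 0.19, adjusted p = 0.229 by limma). The part of glial RNA in the Ednrb value was not tested.

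The other 2 Ednrb probe sets pointed the other way. Probe set 1426314_at read 6.13 and 6.21 in WT and 6.07 and 5.89 in smDicer KO, and 1423594_a_at read 6.35 and 6.38 in WT and 6.30 and 6.22 in smDicer KO. On each of them both smDicer KO arrays lay below both WT arrays, with log2 differences of -0.19 (SE 0.13, adjusted p = 0.540 by limma) and -0.10 (SE 0.12, adjusted p = 0.718 by limma). Such a lack of overlap was found on 49.1% of all probe sets. The means of these 2 over the 4 arrays were 6.07 and 6.31, just above the range near background, beside 8.35 for 1437347_at. All 3 are matched to RefSeq transcripts by 11 probes. Their alignments reach to within 884 and 2044 bases of the 3′ end, where that of 1437347_at starts, and extend over introns toward the 5′ end, that of 1426314_at overlapping 1437347_at. On each array the value of 1437347_at minus the mean of the other 2 was 1.94 and 1.94 in WT and 2.38 and 2.39 in smDicer KO. The difference grew by 0.45, which is large against the spread within each genotype, but the two-sided exact permutation p was 0.333, the smallest that 2 against 2 arrays allow. Because the 3 probe sets had already separated the genotypes in these directions, their difference had to do so too. Its p therefore adds no evidence. Genes with such a split were uncommon on the array: of 3792 genes with 2 or more probe sets of a mean of at least 6, 152 (4.01%) had 1 or more probe sets without overlap in each direction. The direction for Ednrb as a gene is therefore not settled by these arrays.

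**Figure D4:**
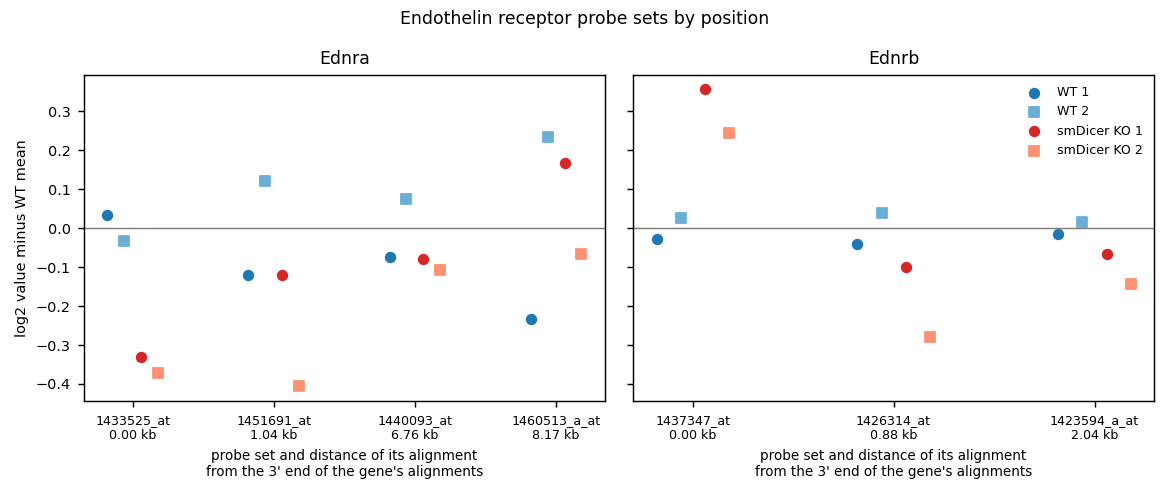
Log2 value minus the WT mean of the probe set (vertical axis) on the 4 arrays for the probe sets of Ednra (left) and Ednrb (right), ordered by the distance in kilobases of their alignment from the 3′ end of the gene's alignments (horizontal axis). For Ednrb, both smDicer KO arrays lie above WT on the 3′ probe set and below it on the other 2.

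The balance between the receptors was taken within each array, where a constant shift of the array cancels. Ednrb 1437347_at minus Ednra 1433525_at was 1.49 and 1.61 in WT and 2.23 and 2.16 in smDicer KO. The groups did not overlap and the difference changed by 0.65 toward Ednrb (two-sided exact permutation p = 0.333, the smallest possible). Both the separation and this p followed from the 2 probe sets having each separated the genotypes, in opposite directions. With all probe sets of each receptor averaged, the values were 2.37 and 2.23 in WT and 2.45 and 2.48 in smDicer KO, and the change was 0.17. The size of the shift thus depended on the probe sets chosen, and both receptors are among the smooth muscle genes picked from these same arrays by the authors, so it is not independent evidence.

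Promoter sequence from RefSeq (GRCm38.p6), in windows of 300 bases that run from upstream to just past the annotated start, was searched on both strands for the CArG box, the element bound by serum response factor in smooth muscle genes, for the TATA element TATAAA, for the GATA element AGATAA, for the AP-1 element TGANTCA and for the GC box GGGCGG. All 6 genes were found by symbol, with 9 windows. The 2 receptor promoters are shown because their main probe sets differed in opposite directions, and that of Edn1 because it alone held a GATA element. That element, in capitals as read on the opposite strand, lies 8 to 13 bases past the annotated start, not upstream of it.
Ednra promoter, chr8:77724403-77724702, minus strand: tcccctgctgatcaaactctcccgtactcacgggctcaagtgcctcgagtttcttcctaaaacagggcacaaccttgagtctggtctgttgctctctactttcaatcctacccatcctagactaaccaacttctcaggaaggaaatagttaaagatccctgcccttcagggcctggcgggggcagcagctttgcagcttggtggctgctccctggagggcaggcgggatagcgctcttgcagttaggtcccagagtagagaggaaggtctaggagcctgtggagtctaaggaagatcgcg
Ednrb promoter, chr14:103843652-103843951, minus strand: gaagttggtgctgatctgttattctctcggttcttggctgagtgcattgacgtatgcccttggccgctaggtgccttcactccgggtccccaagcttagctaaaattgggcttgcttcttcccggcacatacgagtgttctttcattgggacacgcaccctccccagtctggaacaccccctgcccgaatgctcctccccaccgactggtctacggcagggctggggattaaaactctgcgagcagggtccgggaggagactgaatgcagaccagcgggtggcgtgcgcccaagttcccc
Edn1 promoter, chr13:42301226-42301525, plus strand: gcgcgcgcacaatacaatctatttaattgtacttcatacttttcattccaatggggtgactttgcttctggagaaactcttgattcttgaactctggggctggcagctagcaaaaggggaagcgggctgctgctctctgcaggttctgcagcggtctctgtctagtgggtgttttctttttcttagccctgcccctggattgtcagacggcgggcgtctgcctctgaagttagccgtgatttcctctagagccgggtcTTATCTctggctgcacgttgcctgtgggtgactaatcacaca
A CArG box was present in 0 of the 9 windows, beside 1.63% of 32851 windows over all genes, and both receptor windows held none of the 5 motifs. TATAAA was in 13.6% of all windows, AGATAA in 11.2%, TGANTCA in 7.81% and GGGCGG in 35.7%, the last being found among the endothelin genes only in windows of Ece1. A missing match says only that these letters are not in the window.

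Beyond the 6 genes, 84 of 88 listed genes of the endothelin pathway were measured. Of these, 26 (31.0%) passed an unadjusted p of 0.05 by limma, 15 higher and 11 lower, and 0 passed the adjusted p, with a lowest adjusted value of 0.215. Among the 64 with a mean of at least 6 the share was 23 of 64, or 35.9%, beside 25.7% of all genes at that level. The lists were written with earlier results of these data known, so a higher share here is not independent evidence. The median log2 difference of the 84 genes was 0.03 against -0.04 over all genes. The count was 10 without WT 1, 5 without WT 2, 30 without smDicer KO 1 and 24 without smDicer KO 2.

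In peptide processing and breakdown, 1 of 8 genes (12.5%) passed the unadjusted p, beside 17.7% of all genes. Furin, the protease that makes big endothelin, read 8.44 and 8.64 in WT and 8.46 and 8.48 in smDicer KO. Pcsk5, a related convertase, was 0.63 higher (SE 0.23, adjusted p = 0.310 by limma), with 6.55 and 6.36 in WT and 6.81 and 7.37 in smDicer KO. Mme, neprilysin, which breaks endothelins down and was picked after its values were seen, read 3.76 and 3.70 in WT, 4.02 in smDicer KO 1 and 6.64 in smDicer KO 2, so that, like Edn2, it was high on 1 array.

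Downstream of the type A receptor, 6 of 22 genes of Gq and G12/13 signalling (27.3%) passed the unadjusted p, 3 in each direction. Over all genes the share was 17.7%, and 25.7% of those with a mean of at least 6. Gna12, a G12/13 alpha subunit, read 7.75 and 7.93 in WT and 7.23 and 6.96 in smDicer KO. Plcb4, a phospholipase C that Gq activates, read 9.96 and 9.99 in WT and 9.47 and 9.12 in smDicer KO. Itpr1, the inositol trisphosphate receptor that releases stored calcium, read 9.91 and 10.1 in WT and 9.45 and 9.08 in smDicer KO. These 3 were lower by 0.74, 0.68 and 0.72 on the log2 scale, and Itpr3, another such channel, was higher by 0.83, as were the protein kinase C genes Prkca by 0.47 and Prkcd by 1.28. On Itpr3 and Prkcd the second smDicer KO array was the highest, at 8.40 and 9.35. The most abundant reading in the list, Ppp1r12a, the myosin phosphatase subunit, was 12.1 and 12.3 in WT and 11.9 and 11.3 in smDicer KO and missed the unadjusted p (0.0516 by limma).

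In Gi and Gs signalling, 2 of 8 genes (25%) passed, beside 17.7% of all genes and 25.7% of those with a mean of at least 6. Both were lower: Gnai1 by 1.01 (SE 0.24, adjusted p = 0.240 by limma), an inhibitory alpha subunit, and Adcy9 by 0.56 (SE 0.16, adjusted p = 0.255 by limma), an adenylyl cyclase. Desensitization had 5 of 11 (45.5%) past the unadjusted p, beside the same 2 shares. Rgs2, which switches off Gq after contractile receptors fire, had the lowest unadjusted p of all the listed pathway genes (0.00032 by limma) and read 9.61 and 9.63 in WT and 8.33 and 8.08 in smDicer KO, a log2 difference of -1.42 (SE 0.14, adjusted p = 0.215 by limma). Rgs5, which is also a pericyte marker in the lists used, was lower by 0.71 and the arrestin gene Arrb1 by 0.73, while Arrb2 was higher by 0.61 and the receptor kinase gene Adrbk2 by 0.71. Members of 1 family thus differed in both directions.

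A list of immediate targets of endothelin in cultured cells had a median log2 difference of 0.94. It also holds 3 NFAT transcription factor genes, which are not known here as such targets and were the 3 lower genes of the 8. The other 5 were higher, and 3 of 8 (37.5%) passed the unadjusted p. Over all genes the share was 17.7%, and 25.7% of those with a mean of at least 6. Junb, an AP-1 subunit, read 6.72 and 7.09 in WT and 8.30 and 7.96 in smDicer KO. Ctgf, a matricellular growth factor, read 10.1 and 9.71 in WT and 10.8 and 10.999 in smDicer KO. Fos, the partner of Jun proteins in AP-1, read 9.58 and 10.3 in WT and 11.9 and 10.7 in smDicer KO. The first smDicer KO array was the higher one for Fos and Junb, and the median of the list was 1.12 above the WT mean on it and 0.23 on the second. Many other stimuli also induce Junb, Ctgf and Fos.

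Partners of Edn3 and Ednrb in the enteric neural crest had 3 of 12 (25%) past the unadjusted p. Over all genes the share was 17.7%, and 25.7% of those with a mean of at least 6. Ret, the receptor for the GDNF family, was higher by 0.81 (SE 0.24, adjusted p = 0.264 by limma), and is also a neuron marker in the lists used. Nrtn, neurturin, a ligand of the Ret complex, read 8.82 and 9.07 in WT and 7.54 and 7.36 in smDicer KO and was lower by 1.49 on the log2 scale (SE 0.16, adjusted p = 0.215 by limma). Sox10, which marks crest and glia, read 8.08 and 7.998 in WT and 8.54 and 8.15 in smDicer KO. The receptor Ret and its ligand Nrtn thus differed in opposite directions.

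Other receptors through which peptides and lipids contract smooth muscle passed the unadjusted p in 6 of 15 cases (40%). Over all genes the share was 17.7%, and 25.7% of those with a mean of at least 6. Only 5 of the 15 had a mean of at least 6. The thromboxane receptor Tbxa2r, at 8.08 and 8.05 in WT and 7.60 and 7.22 in smDicer KO, was lower by 0.65 and the prostaglandin F receptor Ptgfr, near background, by 1.13. The oxytocin receptor Oxtr, near background in WT, was higher by 0.58 and the nucleotide receptor P2ry6 by 0.62, with Bdkrb2 (0.49) and Uts2r (0.38) also higher at levels near background. F2r, the thrombin receptor, read 10.3 and 10.4 in WT and 10.7 and 10.5 in smDicer KO and did not pass. Ednra and Ednrb, at -0.35 and 0.30, lay inside this range of differences.

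For each endothelin gene with a mean of at least 6, the 2 genes with the most similar profile over the 4 arrays, each centred on its own mean, were sought among 10748 genes. For Ednra they were C330007P06Rik, with 8.38 and 8.31 in WT and 8.01 and 7.98 in smDicer KO (distance 0.0092 on the log2 scale), and Snrpc, a U1 ribonucleoprotein gene (0.0148). For Ednrb they were Arfgap2, with 8.67 and 8.73 in WT and 9.07 and 8.98 in smDicer KO (0.0230), and Psme3, a proteasome activator gene (0.0261). For Edn1 they were Iqwd1 (0.0506) and Ldb1 (0.0663), for Edn3 Col7a1 (0.0086) and Slc38a9 (0.0165), and for Ece1 Cntn1 (0.126) and Trp53inp1 (0.132). These genes were picked as the nearest of 10748 over only 4 arrays, so nothing follows from their closeness about function.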

How the data were processed

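RNA of the jejunal muscularis of 2 WT and 2 smDicer KO mice was hybridized to 1 Affymetrix array each. The authors normalized the arrays with RMA in Omicsoft Array Studio (version not given in the sources used here) and deposited the summarized log2 values. RMA corrects background, gives the arrays 1 distribution and summarizes the probes, which can hide a global shift. The authors' own comparison (fold changes, p-values) and their gene list were not used. Of 45101 probe sets, 64 were controls, 36804 had 1 symbol, 2005 several and 6228 none.

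The log2 values were tested as deposited using limma 3.58.1 (R 4.3.3, moderated with 2.49 prior degrees of freedom), smDicer KO minus WT, with Benjamini-Hochberg adjustment over all probe sets. Tables and figures used pandas 2.3.3, numpy 2.4.6, scipy 1.17.1 and matplotlib 3.10.9 under Python 3.11.15. Genes were read from the probe set of highest mean. Precision is limited by the number of arrays, and p-values measure the spread between 2 mice per group. The test was checked on simulated data in which 200 probe sets were changed.

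The members and gene lists were chosen with earlier results of these data known. Named genes were all members, the 2 nearest profiles per member, and, of each list, up to 3 genes of highest mean and those past an unadjusted p of 0.05. Some single genes are withheld and not reported here. Alternatives were an unmoderated model, a robust eBayes with trend, a filter (18345 probe sets at 6 or above on at least 2 arrays), median centring, cyclic loess, a block, each array left out, and gene means over probe sets.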

Additional observations from a re-analysis of the deposited data

How the results depend on the processing

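No probe set of the array passed the adjusted p under any alternative except on leaving out smDicer KO 1, which gave 378, so over the arrays left out in turn that count ran from 0 to 378. At an unadjusted p of 0.05 the count was 7126, 4535 with the unmoderated model, 4377 with the filter on low values and from 2249 to 9801 with 1 array left out. Of the endothelin probe sets, 1 passed the unadjusted p, 2 with the unmoderated model, 0 with trend and robust, and from 0 to 2 with 1 array left out. Of the pathway genes 26 passed, 11 with the unmoderated model and from 5 to 30 with 1 array left out. The receptor balance of 0.65 was from 0.59 to 0.71 with 1 array left out and 0.17 with all probe sets averaged. The replicate numbers are not tied to shared litters. Replicate 1 deviations of the genotypes correlated at r = 0.383 over 17932 probe sets, and with the number as a block 6683 probe sets, 1 endothelin probe set (Edn2, unadjusted p = 0.0414, in place of Ednra, 0.0645) and 24 pathway genes passed. Ece1 1441423_at was -0.61 without smDicer KO 1 and 0.61 without smDicer KO 2. Ednrb 1437347_at passed the unadjusted p with the unmoderated model (0.0398) and cyclic loess (0.0193), and Ednra 1433525_at missed it with trend and robust (0.0609) and cyclic loess (0.0701). The cause was not tested. Of the values recomputed, 128 kept their direction and side of the threshold. Having 2 arrays per group limits all of these values.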
